A study of Arabidopsis thaliana with 12 samples.

Results

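Expansins are small secreted proteins that loosen the plant cell wall without cutting its polymers, letting turgor stretch the wall as a cell grows. The alpha class (EXPA) and the beta class (EXPB) are the larger branches of the family, and the expansin-like genes (EXLA, EXLB) are related in sequence. Roots use expansins where cells elongate, where lateral roots push through overlying tissue, and in root hairs, the tubular outgrowths of epidermal cells that take up nutrients. The genes described here are 10 Arabidopsis thaliana expansins chosen by name for root growth and root hairs. Of these, 7 had a probe set that the array annotation assigns to a single gene, and these were EXPA4 (AT2G39700), EXPA7 (AT1G12560), EXPA9 (AT5G02260), EXPA15 (AT2G03090), EXPA18 (AT1G62980), EXPB1 (AT2G20750) and EXPB2 (AT1G65680), each with 1 probe set. The other 3, EXPA1, EXPA14 and EXPA17, had none under that annotation and were not analysed here. The whole annotation gave a single-gene probe set to 19 expansin family genes and to 13356 genes in all, among 22746 probe sets tested.

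RNA from whole roots was hybridised to 12 Affymetrix arrays, 3 biological replicates in each of 4 groups. The groups were hni9 mutant roots on low nitrogen (0.3 mM KNO3), hni9 roots on high nitrogen (10 mM NH4NO3), wild-type (WT) roots on low nitrogen and WT roots on high nitrogen, all at steady state. HNI9/IWS1 acts in transcript elongation, and the labels do not give the kind of mutation. The supplies differ in salt as well as in amount, so effects of the salt and of its amount cannot be told apart. The array titles name the mutant hni9-1 in replicate 1, hni9-2 in replicate 2 and hni9 in replicate 3, and the labels do not say whether these are alleles. In whole roots, fewer cells of a type and less RNA per cell cannot be told apart.

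Values are scaled intensities on a linear scale, with a median of 199 to 221 on the 12 arrays. Changes are log2 fold changes ± standard error on the log2(intensity + 16) scale, from a limma fit over all probe sets, and a change was called at a Benjamini-Hochberg adjusted p under 0.05. Probe sets differ in their response, so intensities are compared within a gene only. The ratio of 3′ to 5′ GAPDH control probe sets, a sign of RNA quality, was 0.976 to 1.27 in hni9 at low nitrogen, 1.03 to 1.25 in hni9 at high nitrogen, 0.921 to 1.19 in WT at low nitrogen and 1.31 to 1.35 in WT at high nitrogen. Of 60 cell type markers listed, 5 had a single-gene probe set under the annotation, so root cell types could hardly be checked. JKD, of the ground tissue, averaged 161 to 199 in the 4 groups. The summed intensity of 11 nuclear photosynthesis genes, markers of green tissue, was 5158 in hni9 replicate 1 at low nitrogen and 1074 to 3705 on the other 11 arrays. The lowest group mean of any of them was 34.3. By limma 0 of 11 were called in any comparison, and in hni9 against WT at high nitrogen 5 had an unadjusted p under 0.05.

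The root hair expansins EXPA7 and EXPA18 differed from WT in opposite directions in hni9. EXPA7 and EXPA18 are active in hair-forming epidermal cells and are known for hair outgrowth. EXPA7 had intensities of 1064, 1028 and 915 in hni9 roots at high nitrogen, against 672, 791 and 702 in WT roots. At low nitrogen EXPA7 had 904, 838 and 1016 in hni9 roots, against 504, 639.6 and 599 in WT roots. All 6 hni9 arrays lay above all 6 WT arrays. EXPA7 was higher in hni9 by 0.47 ± 0.12 at high nitrogen (limma adjusted p = 0.0235) and by 0.65 ± 0.12 at low nitrogen (adjusted p = 0.00862). Averaged over both supplies, with 6 arrays in each genotype, the difference was 0.56 ± 0.081, or 1.47-fold (adjusted p = 0.000648). The averaged call held in all 12 fits that left out 1 array. Single arrays decided the call at high nitrogen, which was lost on dropping WT array 1 (adjusted p = 0.0917), WT array 3 (0.0773), hni9 array 1 (0.0899) or hni9 array 2 (0.0603) of that supply, numbered by replicate.

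EXPA18 had intensities of 515, 476 and 541 in hni9 roots at high nitrogen, against 940.5, 1069 and 824 in WT roots. The groups did not overlap, and the lowest WT array was well above the highest hni9 array. EXPA18 was lower in hni9 by -0.86 ± 0.13 (limma adjusted p = 0.00102), which is 0.550 times the WT level, and this call held under all 22 alternatives run. The WT arrays at high nitrogen also had the highest GAPDH 3′ to 5′ ratios, 1.31 to 1.35 against at most 1.27 on the other arrays, and a photosynthesis gene sum of 2627 to 3705, against 1309 to 2209.7 in hni9 at high nitrogen, and the part of either in the difference was not tested. At low nitrogen EXPA18 had 594, 459 and 538 in hni9 roots, against 648, 716 and 569.9 in WT roots. There the ranges overlapped, and the difference of -0.28 ± 0.13 did not pass (adjusted p = 0.374). Averaged over supplies EXPA18 was lower in hni9 by -0.57 ± 0.091 (adjusted p = 0.00126). The nitrogen response of hni9 minus that of WT was 0.59 ± 0.18 for EXPA18 (95% interval 0.20 to 0.98, adjusted p = 0.202), so a dependence of the mutant's difference on supply was not called.

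The ratio of the EXPA7 to the EXPA18 intensity on the same array is free of any scaling between arrays. It was 1.52, 1.82 and 1.89 in hni9 at low nitrogen and 2.07, 2.16 and 1.69 in hni9 at high nitrogen. In WT it was 0.777, 0.894 and 1.05 at low nitrogen and 0.715, 0.740 and 0.851 at high nitrogen. The size of such a ratio depends on both probe sets and has no meaning of its own, but its lowest value in hni9 was above its highest value in WT. Across the 12 arrays the log2 values of the pair had a Pearson correlation of -0.46, and 0.31 once the mean of each group was subtracted. These are descriptions over arrays that share 4 groups.

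**Figure D1:**
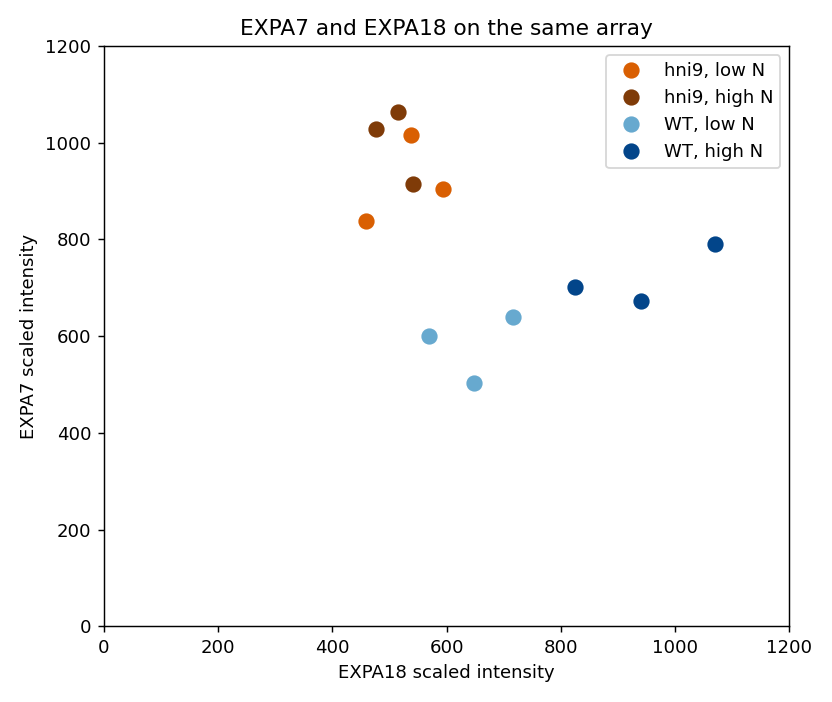
Scaled intensity of EXPA7 (vertical axis) against that of EXPA18 (horizontal axis), each point 1 of 12 arrays, coloured by genotype and nitrogen supply. The 6 hni9 arrays sit at the upper left, with EXPA7 between 838 and 1064 and EXPA18 between 459 and 594, and the 6 WT arrays lie below them, with EXPA7 between 504 and 791 and EXPA18 between 569.9 and 1069.

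Few other root hair genes had a probe set under the annotation, which did not list 8730 of the 22746 probe sets tested. Of 60 genes listed for root hair formation and tip growth, 4 had a named probe set, and 0 of these 4 were called by limma in any comparison. At an unadjusted p under 0.05 there were 0 of 4 in hni9 against WT at high nitrogen, where their median change was 0.029, and 1 of 4, SCN1, at low nitrogen and averaged over supplies. SCN1, which keeps hair outgrowth to a single site, averaged 2015 ± 62.2 in hni9 and 1882 ± 179 in WT at high nitrogen (SD, n = 3 each), where the ranges overlapped. At low nitrogen SCN1 was 1804 to 1977 in hni9 and 1522 to 1719 in WT, with no overlap, a change of 0.21 ± 0.087 that did not pass (95% interval 0.025 to 0.40, limma adjusted p = 0.29). At high nitrogen CSLD2, a cellulose synthase-like enzyme of tip-growing cells, averaged 1394 ± 117 in hni9 and 1339 ± 121 in WT. FER, a receptor kinase of cell growth, averaged 1658 ± 218 in hni9 and 1650.4 ± 83.2 in WT. TRY, a repressor that acts in the patterning of hair cells and trichomes, had the dimmest probe set, at 40.1 ± 27.3 in hni9 and 51.9 ± 28.5 in WT.

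EXPA4 and EXPA15, both alpha-expansins, were lower in hni9. EXPA4 had intensities of 2289.9, 2172 and 2231 in hni9 at low nitrogen, 3265, 3370.4 and 2977 in hni9 at high nitrogen, 2888, 3042 and 3054 in WT at low nitrogen and 4268, 3705 and 4311 in WT at high nitrogen. Low nitrogen and the hni9 genotype each went with a lower level, so that hni9 at low nitrogen was lowest, WT at high nitrogen was highest, and the groups between them overlapped. EXPA4 was lower at low than at high nitrogen by -0.52 ± 0.085 in hni9 (limma adjusted p = 0.00215) and by -0.45 ± 0.085 in WT (adjusted p = 0.00536). EXPA4 was lower in hni9 than in WT by -0.35 ± 0.085 at high nitrogen (adjusted p = 0.0208) and by -0.42 ± 0.085 at low nitrogen (adjusted p = 0.018). The nitrogen response of hni9 minus that of WT was -0.071 (95% interval -0.33 to 0.19, adjusted p = 0.895). Averaged over the other factor, the nitrogen difference was -0.48 ± 0.060 (adjusted p = 0.000102) and the genotype difference -0.39 ± 0.060 (adjusted p = 0.001), and both calls held in all 12 fits that left out 1 array. Dropping WT array 1 (0.0826), WT array 3 (0.0872) or hni9 array 3 (0.0901) of high nitrogen ended the genotype call there. Dropping WT array 2 (0.0759) or WT array 3 (0.0826) of low nitrogen ended the call at that supply. The WT arrays at high nitrogen had the highest GAPDH 3′ to 5′ ratios, whose part in the EXPA4 differences was not tested.

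EXPA15 had 1685, 1293 and 1694 in hni9 at low nitrogen, against 2155, 2238 and 2205 in WT. At high nitrogen EXPA15 had 1844, 1992 and 1757 in hni9, against 2413, 2104 and 2160.0 in WT. All 6 hni9 arrays lay below all 6 WT arrays. EXPA15 was lower in hni9 by -0.50 ± 0.10 at low nitrogen (limma adjusted p = 0.0213), a call lost on dropping WT array 1 (0.0699), array 2 (0.0889) or array 3 (0.0875) of low nitrogen, and with arrays centred on their medians (0.0623). The difference of -0.25 ± 0.10 at high nitrogen did not pass (adjusted p = 0.178). Averaged over supplies EXPA15 was lower by -0.38 ± 0.074 (adjusted p = 0.00492), and that call held in all 12 fits that left out 1 array. Between supplies EXPA15 had changes of -0.27 in hni9 (adjusted p = 0.207) and -0.014 in WT (adjusted p = 0.974), of which 0 passed.

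EXPA4 and EXPA15 had a Pearson correlation of 0.78 across the 12 arrays, and 0.55 after each group's mean was subtracted, the highest of the 21 pairs before that subtraction. Arrays of a group share a genotype and a supply, so this describes the profiles and no more.

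**Figure D2:**
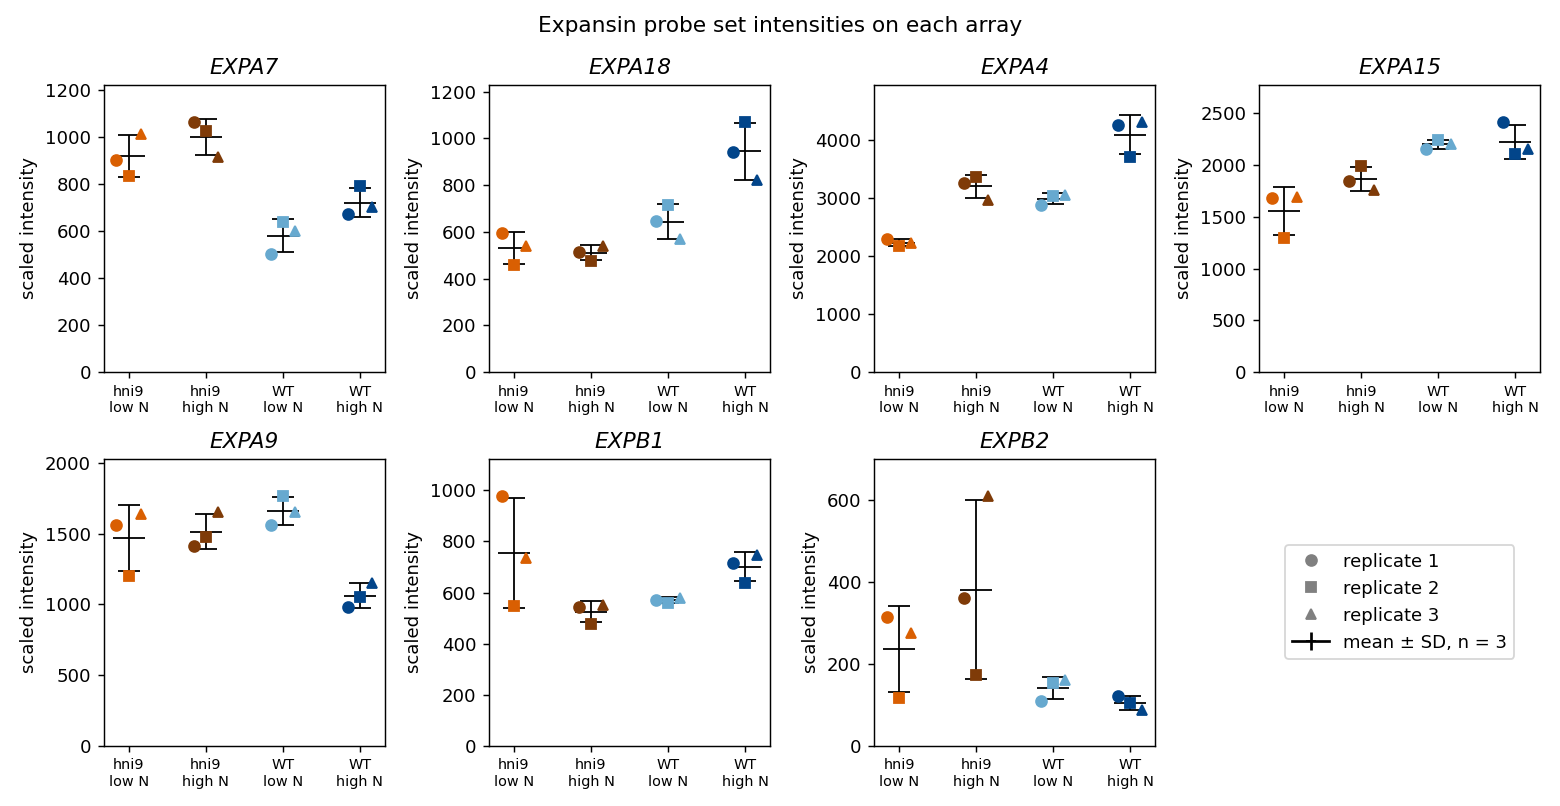
Scaled intensity of the 7 expansin probe sets (vertical axes, each starting at 0) on every array, by genotype and nitrogen supply, with symbols for replicates 1 to 3 and bars for the mean ± SD of 3 arrays. EXPA7 stands higher and EXPA15 lower on all hni9 arrays, EXPA18 and EXPA4 are highest in WT at high nitrogen, EXPA9 is lowest there, and hni9 replicates spread widely for EXPB2 at both supplies and for EXPB1 at low nitrogen.

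EXPA9 was the alpha-expansin with a lower level in WT at high nitrogen than in each of the other groups. EXPA9 had 1562, 1200.1 and 1636 in hni9 at low nitrogen, 1411, 1477 and 1651 in hni9 at high nitrogen, 1564, 1765 and 1651 in WT at low nitrogen and 982, 1051 and 1153 in WT at high nitrogen. The 3 WT arrays at high nitrogen lay below the other 9, which overlapped among themselves. In WT EXPA9 rose at low nitrogen by 0.64 ± 0.12 (limma adjusted p = 0.00389), a call held under all 22 alternatives run. In hni9 the nitrogen change was -0.055 ± 0.12 (95% interval -0.30 to 0.19, adjusted p = 0.894). At high nitrogen EXPA9 was higher in hni9 than in WT by 0.50 ± 0.12 (adjusted p = 0.0153), and at low nitrogen it differed by -0.19 ± 0.12 (adjusted p = 0.546). The comparisons of low with high nitrogen in WT and of hni9 with WT at high nitrogen share the 3 WT arrays at high nitrogen. The nitrogen response of hni9 minus that of WT was -0.69 ± 0.16 (95% interval -1.04 to -0.34), with the smallest adjusted p among the 7 expansins at 0.0789, above the threshold. The genotype call was lost on dropping WT array 1 (0.0686), WT array 2 (0.0533) or hni9 array 3 (0.0686) of high nitrogen. WT arrays at high nitrogen are also those with the highest GAPDH 3′ to 5′ ratios, 1.31 to 1.35, whose part in these differences was not tested.

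EXPA18 showed the reverse arrangement in WT. At low nitrogen its intensities were 648, 716 and 569.9 in WT, against 940.5, 1069 and 824 at high nitrogen, a change of -0.54 ± 0.13 (limma adjusted p = 0.0226). In hni9 the nitrogen change of EXPA18 was 0.048 ± 0.13 (95% interval -0.23 to 0.32, adjusted p = 0.919). This call for EXPA18 ended on dropping array 1 (0.0726) or array 2 (0.113) of WT at high nitrogen, array 1 (0.0666) or array 3 (0.103) of WT at low nitrogen, and with arrays centred on their medians (0.0673). EXPA7 had nitrogen changes of -0.12 ± 0.12 in hni9 (adjusted p = 0.677) and -0.31 ± 0.12 in WT (adjusted p = 0.155), neither of which passed.

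**Figure D3:**
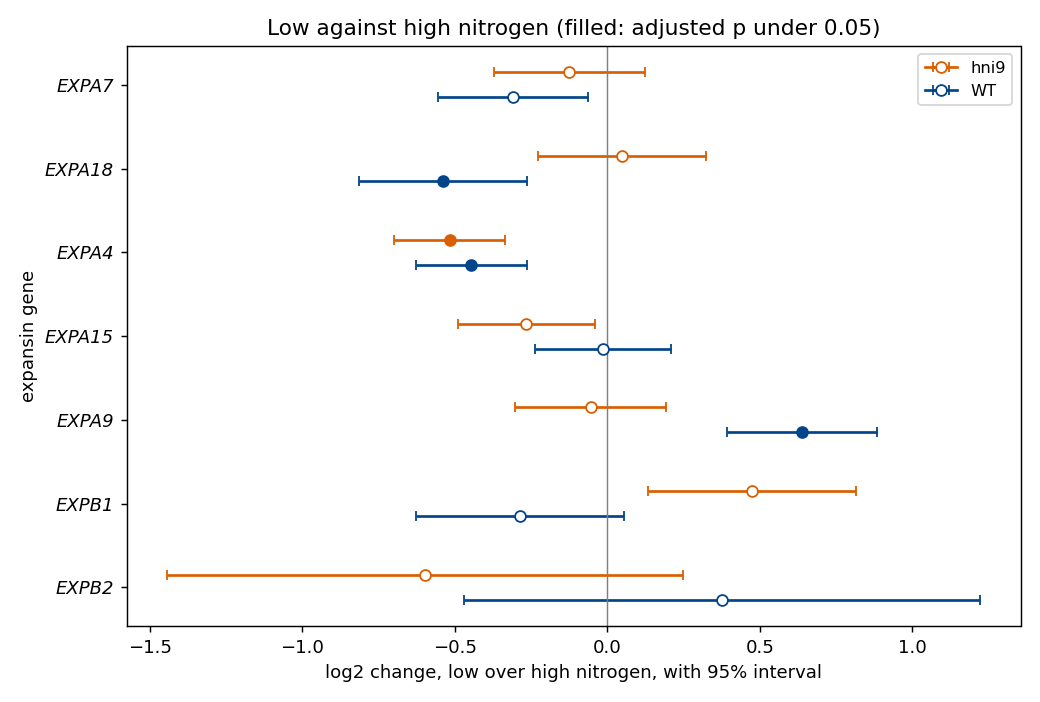
Log2 change of each expansin at low over high nitrogen (horizontal axis) in hni9 and in WT, with 95% intervals from the limma fit and filled points where the adjusted p is under 0.05. EXPA4 is lower at low nitrogen in both genotypes (-0.52 in hni9 and -0.45 in WT), and EXPA9 (0.64) and EXPA18 (-0.54) are called in WT, where their changes in hni9 are -0.055 and 0.048.

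Among the beta-expansins, EXPB2 was higher in hni9 at high nitrogen and EXPB1 was not called. EXPB2 had intensities of 360.0, 173 and 609.8 in hni9 at high nitrogen, against 121, 105 and 87.9 in WT. At low nitrogen EXPB2 had 315, 117 and 277 in hni9, against 109, 153 and 161 in WT. At high nitrogen the 3 hni9 arrays lay above the 3 WT arrays, and at low nitrogen hni9 replicate 2 fell within the WT range. In both supplies replicate 2, titled hni9-2, was the lowest of the hni9 arrays for EXPB2. EXPB2 was higher in hni9 by 1.57 ± 0.39 at high nitrogen, or 2.96-fold (95% interval 0.72 to 2.41 on the log2 scale, limma adjusted p = 0.0258). At low nitrogen the difference was 0.59 ± 0.39 and did not pass (95% interval -0.25 to 1.44, adjusted p = 0.591). Averaged over supplies it was 1.08 ± 0.28 (adjusted p = 0.0254). EXPB2 was the 1 member whose mean lay under the median of all probe sets. Its call at high nitrogen was lost on dropping WT array 1 (0.0547), WT array 2 (0.0724), WT array 3 (0.0894), hni9 array 1 (0.0818) or hni9 array 3 (0.114) of that supply. The averaged call of EXPB2 was lost in 7 of the 12 fits that left out 1 array, with adjusted p up to 0.0641, on dropping hni9 array 1 or array 3 of either supply, array 1 of WT at low nitrogen, or array 2 or array 3 of WT at high nitrogen.

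EXPB1 had 978, 547 and 737 in hni9 at low nitrogen, 543, 478 and 553 in hni9 at high nitrogen, 573, 559 and 579 in WT at low nitrogen and 716, 638 and 749 in WT at high nitrogen. EXPB1 was the 1 member of the 7 called in no comparison. Its nitrogen changes were 0.47 ± 0.16 in hni9 (95% interval 0.13 to 0.82, limma adjusted p = 0.123) and -0.29 ± 0.16 in WT (95% interval -0.63 to 0.055, adjusted p = 0.393). The response of hni9 minus that of WT was 0.76 ± 0.23 (adjusted p = 0.175). Between genotypes EXPB1 differed by -0.41 ± 0.16 at high nitrogen (95% interval -0.75 to -0.066, adjusted p = 0.151), where the hni9 arrays lay below the WT arrays, and by 0.35 ± 0.16 at low nitrogen (95% interval 0.013 to 0.70, adjusted p = 0.349), where they overlapped. These results depend on single hni9 arrays at low nitrogen, where the 547 of replicate 2 was the lowest. Without that replicate 2 array the nitrogen change in hni9 was 0.68 (adjusted p = 0.00737) and its difference from WT 0.97 (adjusted p = 0.0165), both then called. The genotype differences were then called too, in opposite directions, at -0.41 at high nitrogen (adjusted p = 0.0463) and 0.56 at low nitrogen (adjusted p = 0.0471). Over the 12 fits that left out 1 array, the nitrogen change in hni9 ranged from 0.27 to 0.68. The difference of the responses ranged from 0.56 to 0.97, and the genotype difference at low nitrogen from 0.15 to 0.56. Each was called in 1 of the 12. The highest EXPB1 intensity, 978, was on hni9 replicate 1 at low nitrogen, the array with the photosynthesis gene sum of 5158, whose part in it was not tested.

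**Figure D4:**
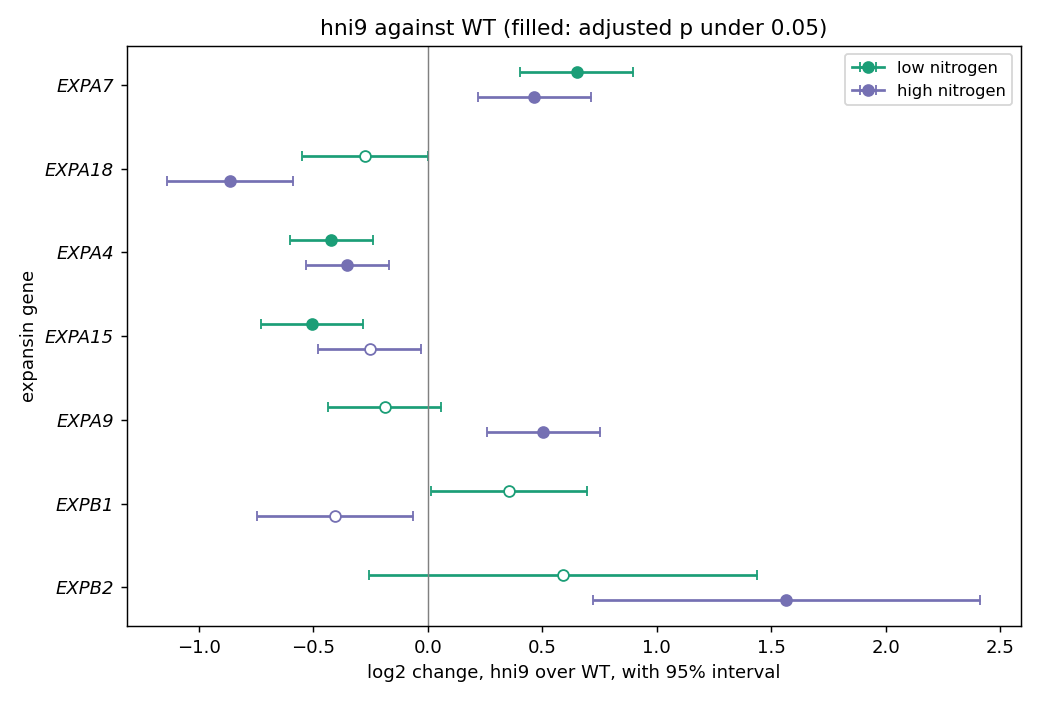
Log2 change of each expansin in hni9 over WT (horizontal axis) at low and at high nitrogen, with 95% intervals from the limma fit and filled points where the adjusted p is under 0.05. EXPA7 is higher and EXPA4 lower at both supplies, EXPA18 is lower at high nitrogen (-0.86), EXPA15 at low nitrogen (-0.50), and EXPA9 (0.50) and EXPB2 (1.57) are higher at high nitrogen.

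Across the comparisons, 6 of the 7 expansins were called at least once, in mixed directions. The share of all probe sets called at least once was not counted, so this number has no background beside it. Shares are given for each comparison instead. In hni9 against WT at high nitrogen 5 of 7 were called, 3 higher (EXPA7, EXPA9 and EXPB2) and 2 lower (EXPA4 and EXPA18), against 7.67% of all probe sets tested and 13.2% of those above the median mean, where 6 of the 7 lie. Dropping a single WT array of high nitrogen brought that count to 1 (array 1), 3 (array 2) or 2 (array 3), and dropping an hni9 array to 3 (array 1) or 2 (array 3). It was 1 with no intensity trend of the variance. In the same comparison the photosynthesis gene sum was 1309 to 2209.7 in hni9 and 2627 to 3705 in WT, with no overlap and 11 of 11 genes below 0 in log2 change, and its part in the expansin values was not tested. At low nitrogen 3 of 7 were called, EXPA7 higher and EXPA4 and EXPA15 lower, against 2.06% of all probe sets and 3.64% of those above the median mean. That count was 1 on dropping array 2 or array 3 of WT at low nitrogen and 0 without the intensity trend. Averaged over supplies 5 of 7 were called, 2 higher and 3 lower, against 9.41% of all probe sets and 16.3% of the brighter ones, and 4 to 5 with 1 array left out.

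For low against high nitrogen, 3 of 7 expansins were called in WT, EXPA9 higher and EXPA4 and EXPA18 lower, against 5.74% of all probe sets and 9.41% of the brighter ones. In hni9 1 of 7, EXPA4, was called, against 5.1% of all probe sets and 8.64% of the brighter ones. Dropping hni9 array 2 of low nitrogen brought that count to 2 with EXPB1. Averaged over genotypes 2 of 7, EXPA9 and EXPA4, were called, against 8.95% of all probe sets and 14.4% of the brighter ones. EXPA9 at 0.29 ± 0.082 (limma adjusted p = 0.0368) lost its call in 8 of the 12 fits that left out 1 array, with adjusted p up to 0.0969. For the nitrogen response of hni9 minus that of WT 0 of 7 were called by limma, with 3 at an unadjusted p under 0.05 (EXPA9, EXPA18 and EXPB1), against 0.703% of all probe sets and 1.22% of the brighter ones called. The median change of the 7 was -0.25 in hni9 against WT at high nitrogen, where that of all probe sets was 0.026, and -0.29 for low against high nitrogen in WT, where that of all probe sets was -0.024. These 2 medians were the largest in size. The median was -0.19 for hni9 against WT at low nitrogen and -0.026 averaged over supplies. For low against high nitrogen it was -0.12 in hni9 and -0.14 averaged over genotypes, and for the difference of the responses -0.071. The 10 genes were chosen with earlier results of these data known, so these counts describe them and are not independent evidence.

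Among the other 12 expansin family genes with a probe set, EXLB1, EXPB3 and EXLA1 were called at least once, a count that likewise has no share of all probe sets beside it. Several of the rest were dim, with group means of 2.48 to 4.82 for AT4G30380, 4.17 to 13.3 for EXPA21 and 9.67 to 34.2 for EXPA24. The offset added before the log2 step compresses changes of such genes, and its part in their lack of calls was not tested. Other uncalled genes were brighter, such as EXPA20 with group means of 212 to 336. A lack of calls is not taken to set any of these genes apart from the expansins above. In hni9 against WT at high nitrogen 2 of 12 were called, both lower, against 7.67% of all probe sets, and the median change of the 12 was -0.43. At low nitrogen 1 of 12 was called, against 2.06% of all probe sets. EXLB1, an expansin-like gene, had 113, 83.4 and 116 in hni9 at high nitrogen, against 365, 414 and 448 in WT, a change of -1.83 ± 0.25 (limma adjusted p = 0.000431). At low nitrogen EXLB1 had 64.7, 139 and 118 in hni9, against 335, 248 and 312 in WT, a change of -1.39 ± 0.25 (adjusted p = 0.00837). All 6 hni9 arrays lay far below all 6 WT arrays, and EXLB1 was called at both supplies in every fit that left out 1 array. EXPB3, a beta-expansin, averaged 1312 ± 300.5 in hni9 and 2112 ± 323 in WT over both supplies (SD, n = 6 each), a change of -0.70 ± 0.14 (adjusted p = 0.00564), with no overlap between the genotypes. Its call at high nitrogen alone, -0.73 ± 0.20 (adjusted p = 0.0375), was lost in 8 of the 12 fits that left out 1 array, with adjusted p up to 0.143. For low against high nitrogen in WT 1 of 12 was called, against 5.74% of all probe sets. EXLA1 was lower at low nitrogen in WT by -0.78 ± 0.20 (adjusted p = 0.0359), at 621 ± 66.3 against 1087 ± 222 at high nitrogen. The EXLA1 call was lost in 6 of the 12 fits that left out 1 array, with adjusted p from 0.0506 without hni9 array 1 of high nitrogen to 0.155 without WT array 3 of high nitrogen, the others being WT array 2 of high nitrogen and each WT array of low nitrogen.

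Xyloglucan endotransglucosylase/hydrolases (XTH) cut and rejoin the xyloglucan that links cellulose fibres, and act on the same growing walls as expansins. In hni9 against WT at high nitrogen 3 of 10 measured XTH genes were called, 1 higher and 2 lower, against 7.67% of all probe sets. XTH32 had 135, 134 and 228 in hni9, against 595, 434 and 559.9 in WT, a change of -1.61 ± 0.24 (limma adjusted p = 0.00108). XTH21 had 87.0, 46.3 and 140.2 in hni9, against 226, 326 and 457 in WT, a change of -1.76 ± 0.30 (adjusted p = 0.00265). For both genes the hni9 arrays lay below the WT arrays, and both calls held in all 22 alternatives run. These WT arrays had the highest GAPDH 3′ to 5′ ratios, whose part in the differences was not tested. XTH27, which the files list as EXGT-A3, was higher in hni9 by 0.44 ± 0.099 (adjusted p = 0.0134, or 0.065 on dropping WT array 3). At low nitrogen 0 of 10 were called between genotypes by limma, with 2 at an unadjusted p under 0.05, against 2.06% of all probe sets called. For low against high nitrogen in hni9 2 of 10 were called, both higher, against 5.1% of all probe sets. XTH21 rose by 1.59 ± 0.30 (adjusted p = 0.00611) and XTH16 by 0.90 ± 0.18 (adjusted p = 0.00886). Both calls were lost with only the arrays compared in the fit (0.0579 for XTH21 and 0.0542 for XTH16), and that of XTH16 with replicates 1 and 2 alone (0.12). In WT 3 of 10 were called, 2 higher and 1 lower, against 5.74% of all probe sets. XTH32 was lower at low nitrogen by -0.91 ± 0.24 (adjusted p = 0.0399), a call lost in 6 of the 12 fits that left out 1 array, with adjusted p up to 0.152 without WT array 1 of high nitrogen, the others being WT arrays 2 and 3 of high nitrogen and each WT array of low nitrogen. XTH27 was higher by 0.44 ± 0.099 (adjusted p = 0.0173), lost on dropping WT array 1 (0.0873) or array 2 (0.0507) of low nitrogen or WT array 3 (0.0838) of high nitrogen. XTH16 was higher by 0.68 ± 0.18 (adjusted p = 0.0392), a call lost in 6 of the 12 fits that left out 1 array, with adjusted p from 0.0532 without hni9 array 1 of high nitrogen to 0.165 without WT array 3 of high nitrogen, the others being WT array 1 of high nitrogen and each WT array of low nitrogen.

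**Figure D5:**
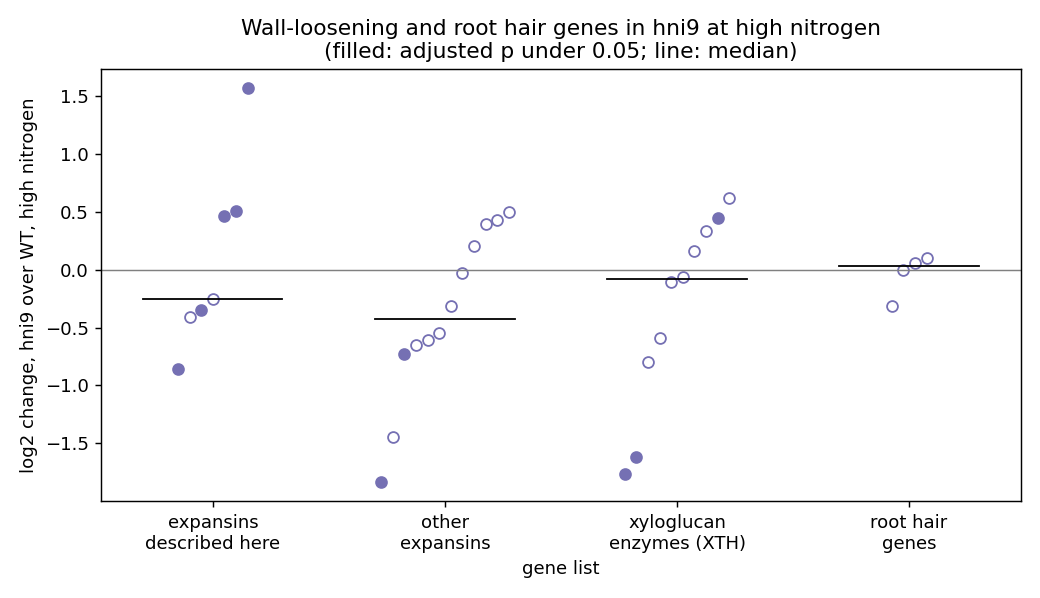
Log2 change in hni9 over WT at high nitrogen (vertical axis) of the 7 expansins described here, 12 other expansins, 10 XTH genes and 4 root hair genes, 1 point per gene, filled where the adjusted p is under 0.05, with a line at each list's median. Called genes lie on both sides of 0 among the 7 expansins and the XTH genes, and below 0 among the other expansins.

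Of 4 measured genes of pectin methylesterases, pectate lyases and polygalacturonases, which act on wall pectin, 1 was called in hni9 against WT at high nitrogen, against 7.67% of all probe sets. PMEPCRF, a pectin methylesterase gene, had 447, 432 and 555 in hni9, against 826, 789.9 and 899 in WT, a change of -0.80 ± 0.11 (limma adjusted p = 0.000696), with no overlap. These WT arrays had the highest GAPDH 3′ to 5′ ratios, whose part in the difference was not tested. Averaged over supplies 2 of 4 were called, 1 higher and 1 lower in hni9, against 9.41% of all probe sets. The lower was PMEPCRF. The higher was ATPMEPCRB, another pectin methylesterase gene, by 0.26 ± 0.073 (adjusted p = 0.0396), a call kept in 10 of 21 alternatives and in 3 of the 12 fits that left out 1 array. Of 3 measured genes of the lateral root auxin module, which are also the 3 measured markers of lateral root primordia, 1 was called for low against high nitrogen in hni9, against 5.1% of all probe sets. LBD16, a transcription factor that starts lateral roots, fell at low nitrogen in hni9 to 136, 175 and 173, against 382, 229.6 and 392 at high nitrogen, a change of -0.95 ± 0.21 (adjusted p = 0.0139). Dropping hni9 array 1 (0.0675) or array 3 (0.0673) of high nitrogen, or hni9 array 1 (0.064) of low nitrogen, ended the LBD16 call, as did a fit of only the arrays compared (0.0933). LBD29, a related factor, had a change of 0.45 ± 0.47 (95% interval -0.57 to 1.47, adjusted p = 0.73) and PUCHI, a factor of primordium shape, one of -0.21 ± 0.21 (95% interval -0.65 to 0.23, adjusted p = 0.698), and neither passed.

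For the 6 expansins called at least once, the genes with the most similar profile over the 12 arrays were sought among 5932 to 5934 genes brighter than the median. The highest Pearson correlations with EXPA4 were those of AT1G49500 (0.93), the dehydrin gene AT1G54410 (0.93) and the peroxidase gene AT5G64120 (0.93). Those with EXPA7 were AT1G22570 (0.95), AT3G57490 (0.95) and AT2G35605 (0.94), and those with EXPA18 were AT1G62480 (0.95), AT3G51660 (0.94) and AT2G41380 (0.94). EXPA15 was most like PRN, a pirin gene (0.95), AT2G19970 (0.93) and AT5G19970 (0.93). EXPA9 was most like AT2G35790 (0.90), AT3G47380 (0.89) and AQI (0.89), and EXPB2 was most like AT4G10480 (0.95), AT5G20080 (0.93) and AT2G34930 (0.91). The mean profile of EXPA7 and EXPA18 was most like AT4G11190 (0.92), AT1G18980 (0.92) and AT2G40110 (0.91). The arrays share 4 groups, and each gene was picked as the highest of all those searched, so these correlations are descriptions.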

How the data were processed

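Root RNA was labelled with biotin and hybridised to Affymetrix arrays, per the labels' protocols. The values deposited by the authors are linear intensities, 1 per probe set and array, scaled so that an array's mean is 500 once 2% at each end is trimmed, as read from the values. Which software summarised the probes was not stated. The table holds 22810 probe sets, of which 64 controls were left out and 22746 tested. The annotation gave 1 gene to 13513, several to 503 and did not list 8730.

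Intensities were transformed as log2(value + 16). The limma package (3.58.1, R 4.3.3) then estimated 4 group means from the 12 arrays together, with moderated variances that follow intensity and Benjamini-Hochberg adjustment over all probe sets at 0.05. The number of arrays limits the precision. The p-values set differences of group means against a variance pooled over the 4 groups and moderated across probe sets. That variance comes from the spread between these replicates only. The fit was tried on simulated data for hni9 against WT at high nitrogen, with 22746 probe sets tested. It recovered 88% of 100 log2 changes of 1 and 98% of 100 of 2, and 6.06% of its calls were false. The changed probe sets all lay above the median mean and were changed in hni9 at high nitrogen only. Noise was normal and independent between arrays. Changes of dimmer probe sets, such as that of EXPB2, and noise shared between arrays were not simulated. Changes smaller than 1 were not simulated. These shares therefore say nothing on smaller changes, which include most of those reported here for the expansins. The members, lists and tests were chosen with earlier results of these data known, and the photosynthesis list once the annotation had been seen. The text names all members, up to 4 other expansins past the threshold, up to 3 called genes from each list in comparisons where an expansin was called, and the 3 closest profiles. Of the lists, 0 of 15 genes of primary wall cellulose synthesis and 0 of 11 plasma membrane proton pumps had a named probe set. Replicate numbers were not taken to pair arrays, since no label says what a number shares. In their deviations from group means, same-numbered pairs correlated at 0.022 to 0.15, with 6 of 18 over 0.1. Pairs of different numbers correlated at -0.12 to 0.051, so some sharing by number is possible. Alternatives covered the offset, normalization, variance trend, replicate block, arrays in the fit, dim probe sets and probe sets per gene.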

Additional observations from a re-analysis of the deposited data

Results flagged for a closer look

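A difference in nitrogen response between the genotypes was called for PMEPCRF, a pectin methylesterase gene, by a test of the difference itself. The response of hni9 minus that of WT was 0.78 ± 0.16 (limma adjusted p = 0.0421), with changes of 0.30 in hni9 and -0.48 in WT, and the call was kept in 7 of 21 alternatives. Dropping single arrays could end it, for example array 3 of WT at high nitrogen (limma adjusted p = 0.119). PMEPCRF was highest in WT at high nitrogen, at 790 to 899. Those arrays had the highest GAPDH 3′ to 5′ ratios, whose part in this difference was not tested.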

How the results depend on the processing

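No change of a member or other named gene that was called reversed its direction under any alternative run. Counts of the 7 expansins called that moved by over 1.5 times are given first. With replicates 1 and 2 alone the count was 1 for hni9 against WT at high nitrogen (5 with all arrays), 0 at low nitrogen (3), 2 averaged over supplies (5), 1 for low against high nitrogen in WT (3) and 1 averaged over genotypes (2). Without the intensity trend it was 1 for hni9 against WT at high nitrogen, 0 at low nitrogen and 1 for nitrogen averaged over genotypes, which was also 1 after quantile normalization. Smaller moves without the intensity trend were to 2 for low against high nitrogen in WT (EXPA18 lost, adjusted p = 0.0783) and to 4 for genotype averaged over supplies (EXPB2 lost, 0.0714). Fitting only the arrays compared ended the genotype calls of EXPA4 at high nitrogen (0.0585) and EXPA15 at low nitrogen (0.0719). With 1 array left out the counts were 1 to 6 for hni9 against WT at high nitrogen, 1 to 4 at low nitrogen, 4 to 5 averaged over supplies, 2 to 3 for low against high nitrogen in WT, 1 to 2 in hni9 and averaged over genotypes, and 0 to 1 for the difference of the responses. With the replicate number as a block that last count was 1 (EXPA9, adjusted p = 0.049). The numbers share no stated source, although 11 of 12 arrays correlated best with an array of their own number, 5 of 6 pairs of replicate 3 correlated over 0.1, and 24 of 24 pairs of replicate 3 with replicate 1 or 2 were below 0. The replicate block changed no other count. On each array 10.8% to 15.0% of intensities were smaller than the 16 added, which compresses changes of dim genes.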
